A study of Mus musculus with 3 samples.

Results

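The 9 genes described here encode transcription factors and a chromatin protein of cortical progenitors: Pax6, Sox2, Emx1, Emx2, Lhx2, Nr2f1, Nr2e1, Sox9 and Hmga2. They are 9 of the 21951 protein-coding genes of GENCODE M21, and were taken by name. A peak was assigned to a gene when it lay in the gene or in the 5 kb before its 5′ end. The data were ChIP-seq of mouse brain cortices at E13.5, with an antibody against NF-YC (NF-Y-ChIP) and an antibody against H3K4me3 (H3K4me3-ChIP), 1 library of each, and an input library with no antibody. By the labels the libraries share the tissue and the stage and differ in the antibody, and no genotype or strain is stated. Cortices at this stage hold progenitors together with newborn neurons and other cells, so a weaker mark in every cell and a mark in fewer cells cannot be told apart. Neither antibody had a replicate, so all values below are descriptions of single libraries without a test.

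H3K4me3 is a histone mark found around the start sites of active and poised genes, and domains of it that run far into the gene have been described at genes that define a cell type. NF-Y is a trimeric factor, of which NF-YC is a part, that binds the CCAAT box, usually close upstream of a start site. The 9 factors act in the ventricular zone, where Pax6, Sox2 and Sox9 mark apical progenitors, Emx1, Emx2, Lhx2 and Nr2f1 pattern the cortex, and Nr2e1 and Hmga2 are known from the self-renewal of neural stem cells.

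The H3K4me3-ChIP list held 18816 peaks and the NF-Y-ChIP list 733, and the depth behind them is unknown. The height of a peak is given as its fold enrichment, the pileup at the summit over the local background, and the breadth of the mark as the bases its peaks cover. All 9 genes carried H3K4me3-ChIP peaks, 41 in all, against 65.4% of protein-coding genes with a peak or more (14352 of 21951, called marked genes here). None of the 9 had an NF-Y-ChIP peak, against 3.69% of protein-coding genes and 5.6% of marked genes. A count of 0 of 9 allows a share of up to 33.3%, taken for each such count as 3 divided by the number of genes. With 9 genes, the factors cannot be separated from other marked genes by this count. The medians of the 9 genes and of marked genes were far apart for the length of the mark and close for its height. Peaks covered a median of 6483 bp at the 9 genes and 1565 bp at marked genes, a ratio of 4.14, while the median of the highest fold enrichment per gene was 38.8 and 40.1, respectively.

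The sequences before the 5′ ends of Pax6 and Emx1 are shown because both genes have a CCAAT box close to the usual distance from the start and no NF-Y-ChIP peak. Each run gives the 200 bases before the GENCODE 5′ end on GRCm38, 5′ to 3′, with CCAAT in capitals.
Pax6, chr2:105668700-105668899, + strand: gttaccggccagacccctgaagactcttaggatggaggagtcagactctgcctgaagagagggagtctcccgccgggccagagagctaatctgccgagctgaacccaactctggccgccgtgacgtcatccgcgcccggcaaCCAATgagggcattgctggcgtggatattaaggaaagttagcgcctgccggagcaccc
Emx1, chr6:85187238-85187437, + strand: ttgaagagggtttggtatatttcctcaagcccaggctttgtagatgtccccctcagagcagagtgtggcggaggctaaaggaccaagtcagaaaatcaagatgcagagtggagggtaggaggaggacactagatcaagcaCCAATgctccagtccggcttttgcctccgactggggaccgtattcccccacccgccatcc
The box of Pax6 began at −58 and that of Emx1 at −60 relative to the 5′ end. Of 629 genes whose 5′ end had the summit of an NF-Y-ChIP peak at most 1 kb away (called bound genes here), 519 had CCAAT or ATTGG from 200 bp before to 50 bp after the 5′ end, and there the median position was −69, with quartiles of −118 and −35. Marked genes that were not bound had nearly the same positions, with a median of −75 and quartiles of −127 and −34. A box at −58 or −60 therefore does not by itself point to a bound gene. Since both sets were read in the same window, which limits the positions, they cannot show whether position differs with binding. The Pax6 box fitted the extended consensus of purine, purine, CCAAT, C or G, purine, and the Emx1 box did not.

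Pax6, the paired-box homeodomain factor of apical progenitors, had the most peaks of the 9. Its 12 peaks covered 11690 bp in all and 40.0% of the gene (chr2:105668900-105697364, + strand). More peaks than this were found at few marked genes, since Pax6 stood at the 100.0th percentile of marked genes (the share with a lower value, rounded) by peak number and at the 99.9th by covered length. Of the 12 peaks, 11 joined into a single domain of 14014 bp when gaps of up to 1 kb were bridged, reaching 318 bp upstream and 13695 bp downstream of the 5′ end. The peak over the 5′ end of Pax6 was the weakest 5′ peak of the 9 genes. That peak (chr2:105668582-105670545) had a 7.81-fold enrichment over 1964 bp, whereas an internal peak (chr2:105674596-105678324) had a 38.3-fold enrichment over 3729 bp, with its summit at +7593. The internal peak held 7 annotated Pax6 transcript starts, and the 5′ peak held 3 together with a start of Pax6os1, the gene on the opposite strand. The other 10 peaks lay between 4.59-fold and 7.35-fold.

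A pair of CCAAT boxes lay before a protein-coding start at +6533 within the strong internal Pax6 peak, at −95 and −65 from that start. Both are shown with 10 bases to each side, since no NF-Y-ChIP peak was called there either.
Pax6 box at −95, chr2:105675328-105675352, + strand: aacaaaccgaCCAATtgcaccaggc
Pax6 box at −65, chr2:105675358-105675382, + strand: gagggagcatCCAATcggctggcgc
Neither fitted the extended consensus. The start at +2960 had a CCAAT at −32 and an ATTGG, the reverse complement, at −13, in a peak with a 4.59-fold enrichment.

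Over the whole gene and its upstream region, the cortical patterning factors Lhx2 and Nr2f1 had the greatest covered length together with Pax6. Peaks were also counted at full width where they touched the 5 kb to each side of the 5′ end. By these, Lhx2 had the least of the 9, with 3735 bp, and Pax6 had 4377 bp, while Nr2f1 had the most, with 10389 bp. Part of that length lies outside the 5 kb, as the main peak of Nr2f1 runs to +6055. Lhx2 (chr2:38339281-38369733, + strand), a LIM homeodomain factor, had 7 peaks that covered 13194 bp, the most of the 9 genes and the 99.9th percentile of marked genes. They fell into separate blocks. A peak over the 5′ end (chr2:38338596-38341830) had a 44.3-fold enrichment over 3235 bp, and an internal peak (chr2:38350352-38358285) had a 38.4-fold enrichment over 7934 bp, the widest single peak at any of the 9 genes. The internal peak began 11071 bp downstream of the 5′ end and held 4 Lhx2 transcript starts. Between them, a peak with a 23.7-fold enrichment lay over the start of Gm27197, so it cannot be read as Lhx2 alone.

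Nr2f1 (chr13:78188973-78199757, − strand), an orphan nuclear receptor also known as COUP-TFI, had the strongest peak of the 9. Its main peak (chr13:78193702-78200391) had a 58.1-fold enrichment over 6690 bp, the 82.4th percentile of marked genes by height. A second broad peak (chr13:78200507-78204205, 29.9-fold, 3699 bp) lay upstream. Both held a start of the gene A830082K12Rik. The domain at the 5′ end ran from 4448 bp upstream to 6477 bp downstream, and was the only one of the 9 that reached more than 2127 bp upstream.

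The homeodomain factors Emx1 and Emx2 resembled each other in these values, and in covered length also Sox2 and Nr2e1, with 6483 and 6277 bp. Emx1 (chr6:85187438-85204462, + strand) had 4 peaks over 6920 bp, with a highest enrichment of 41.0-fold. Emx2 (chr19:59458372-59465357, + strand) had 3 peaks over 6329 bp, with a highest enrichment of 41.7-fold. At Emx1 a peak of 5292 bp lay over the 5′ end (chr6:85185946-85191237), and the 3 other peaks were internal, at 4.39-fold to 6.74-fold. At Emx2 a peak of 5807 bp (chr19:59457636-59463442) held 3 of its own starts and a start of Emx2os, a transcript of the opposite strand. The remaining Emx2 peaks were 3.06-fold and 4.16-fold.

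The Sox factors lie in short genes, and the mark ran beyond or through most of them. Sox2 (chr3:34650405-34652461, + strand), an HMG-box factor of all neural progenitors, had peaks over 100% of its 2057 bp. Its main peak (chr3:34649250-34655095) had a 30.1-fold enrichment over 5846 bp and extended past the 3′ end of the gene. The same peak held a start of Gm27611, and Sox2ot had a start within 1 kb of it, so the mark at this locus cannot be assigned to Sox2 alone. Sox9 (chr11:112782224-112787760, + strand), an SRY-related factor of radial glia, had peaks over 68.8% of its 5537 bp. Its main peak (chr11:112780968-112785598) had a 34.7-fold enrichment over 4631 bp and held a start of BC006965, and its other peaks were 3.86-fold and 5.12-fold.

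Nr2e1 (chr10:42561963-42583632, − strand), the orphan nuclear receptor also called Tlx, had 5 peaks over 6277 bp. The peak at its 5′ end (chr10:42581661-42585415) had a 38.8-fold enrichment over 3755 bp and also held a start of the neighbouring gene Ostm1. A second peak of 1978 bp inside the gene, at 9.23-fold, held 2 more Nr2e1 starts. Hmga2 (chr10:120361275-120476469, − strand), an AT-hook chromatin protein, had the shortest covered length and the lowest highest enrichment of the 9. It had a single peak (chr10:120473984-120477901) of 3918 bp and 26.2-fold, which covered 2.16% of a gene of 115195 bp. That peak was nonetheless at the 95.5th percentile of marked genes by covered length, and at the 26.1st by height.

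**Figure D1:**
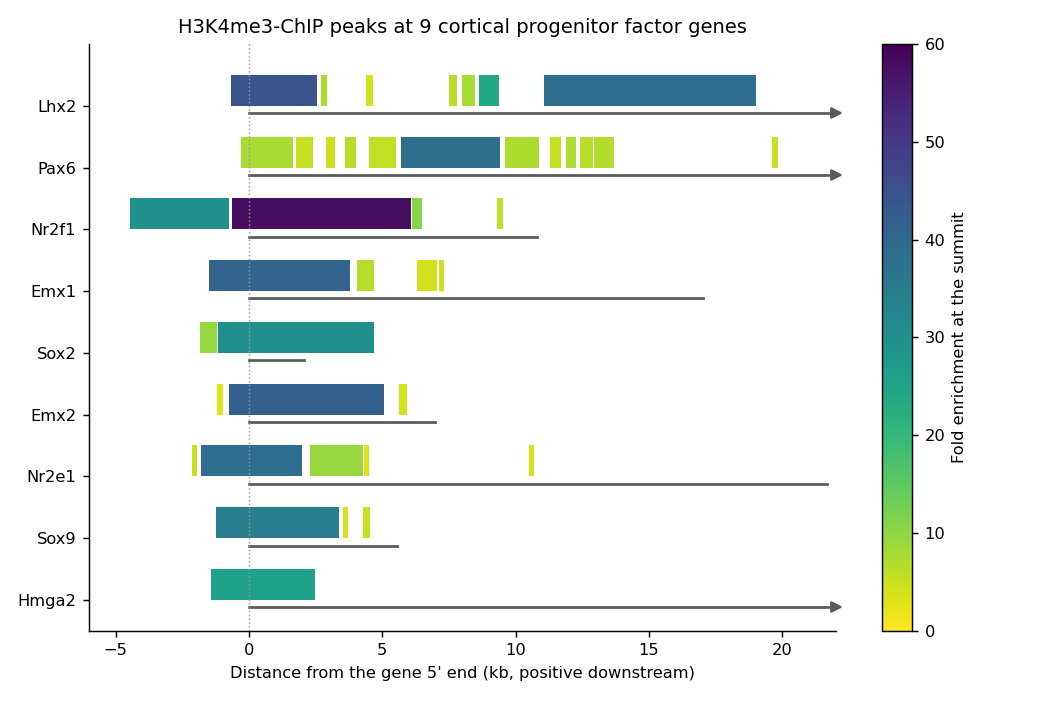
H3K4me3-ChIP peaks at the 9 genes, drawn by distance from the gene 5′ end (kb, positive downstream), with the color giving the fold enrichment and the grey line the gene (an arrow marks a gene that runs past the plot). The strongest Pax6 peak lies inside the gene with its summit at +7593 bp, Lhx2 has a second broad peak of 7934 bp, and Hmga2 has 1 peak.

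The order of the 9 by covered length was Lhx2, Pax6, Nr2f1, Emx1, Sox2, Emx2, Nr2e1, Sox9 and Hmga2. Without replicates it cannot be said which neighbours in this order differ, and the 4 genes from Emx1 to Nr2e1 lay between 6277 and 6920 bp. All 9 exceeded 3791 bp, the 95th percentile of marked genes, which by construction 5% of marked genes exceed. Of the 717 genes above that length, 10.3% had an NF-Y-ChIP peak, and none of the 9 did. By height, the 9 genes ran from the 26.1st to the 82.4th percentile. To lessen the part of gene length, peaks were also taken from a region of fixed size, 5 kb to each side of the 5′ end. Peaks that touched it, counted at full width, had a median total of 5960 bp at the 9 genes against 1508 bp at marked genes. The 9 stood between the 97.0th percentile, Lhx2, and the 100.0th, Nr2f1. Bases outside the region are included, so this is not the length covered within it.

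**Figure D2:**
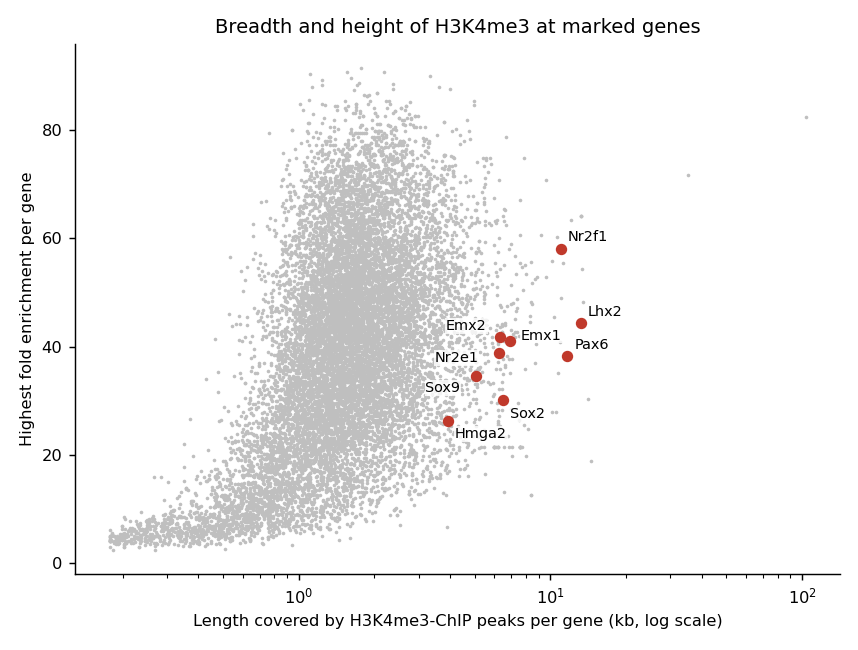
Length covered by H3K4me3-ChIP peaks (kb, log scale) against the highest fold enrichment per gene, for 14352 marked protein-coding genes (grey) and the 9 factors (red). The 9 lie to the right, between 3918 and 13194 bp, and spread through the middle of the height range, between 26.2-fold and 58.1-fold.

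Of the 9 genes, 8 had 2 peaks or more, against 26.2% of marked genes, and 7 had an intragenic peak, against 21.8%. An intragenic peak lay wholly inside the gene and over 1 kb from its 5′ end. Only Sox2 and Hmga2 had none. In lists described below, 12 of 21 other progenitor factors and 16 of 20 neurogenic and projection neuron factors also had an intragenic peak. The median number of peaks was 4 and 3 in these lists and 4 at the 9 genes, so these traits are not particular to the 9. Of the 28 intragenic peaks at the 9 genes, 17 had an annotated start within 1 kb. The remaining 11, in 7 of the 9 genes, had no annotated start within 1 kb, against 8.2% of marked genes with such a peak. Some of the 11, at Emx1, Emx2, Nr2f1, Nr2e1 and Sox9, lay in the joined domain at the 5′ end, so this count is not separate from its breadth. The 11 were small, with a median of 257 bp and 4.69-fold enrichment, and a range of 3.34-fold to 10.8-fold. A set of 4 touched an exon of the gene and 7 lay in introns. They held a median of 1.20 CpGs per 100 bp, against 5.14 in the 9 peaks over the 5′ ends, which had a median of 4631 bp and 38.8-fold. Of all 41 peaks, 28 were under 10-fold, so the number of peaks per gene depends on weak peaks near the broad ones, and 10 of the 41 exceeded 27.5-fold, the median of the list.

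The domains at the 9 gene 5′ ends were also compared in sequence composition with the other H3K4me3-ChIP domains. Joining peaks across gaps of up to 1 kb gave 16582 domains with a median of 1254 bp, of which 440 (2.65%) were at least as wide as the narrowest of the 9, that of Lhx2 with 3625 bp. The 9 domains had a median of 6639 bp, a GC content of 54.5% and 4.51 CpGs per 100 bp. The 440 wide domains had medians of 56.4% and 5.03, and all domains 58.5% and 5.62. CCAAT or ATTGG occurred at a median of 1.51 per kb in the 9 domains, 1.17 per kb in the wide domains and 0.929 per kb in all domains. The 9 ranged from 0.915 per kb at Nr2f1, below the median of all domains, to 2.42 per kb at Emx1, and Lhx2, with 1.10 per kb, was below the median of the wide domains. The lowest CpG density was found at Lhx2, with 3.37 per 100 bp, and the highest at Hmga2, with 7.20.

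No NF-Y-ChIP peak lay near the 9 genes. The closest was 146 kb from the 5′ end of Emx1, near the start of Sfxn5 with a 5.57-fold enrichment, followed by a peak 236 kb from Pax6 at Elp4 with a 5.19-fold enrichment. At Emx2 the nearest was 768 kb away, at Fam204a, with a 43.7-fold enrichment. At Hmga2 it was 503 kb away, at Lemd3, and at Nr2e1 and Sox2 1318 and 1350 kb, at Rtn4ip1 and Mccc1. At Sox9 and Nr2f1 it was 2495 and 2686 kb away, at Fdxr and Arrdc3. The most distant was 3567 kb from Lhx2, at Hspa5, which encodes an endoplasmic reticulum chaperone, with a 12.4-fold enrichment. All 9 nearest peaks had their summit within 482 bp of the start of another protein-coding gene.

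CCAAT or ATTGG, searched on both strands from 200 bp before to 50 bp after the 5′ end, occurred at 4 of the 9 genes, 44.4% with a Wilson 95% interval of 18.9% to 73.3%, against 34.5% of marked genes. The interval holds the share of marked genes, so a difference in box content was not detectable with 9 genes. It treats the 9 as a random sample, which genes taken by name are not. The 4 genes were Pax6, Emx1, Sox2 and Sox9. Sox2 had a CCAAT at −179, and Sox9 had a CCAAT at −107 and an ATTGG at −62. In this window the extended consensus occurred at 2 of the 9, Pax6 and Sox9, against 13.4% of marked genes. No motif was found in this window at Emx2, Lhx2, Nr2f1, Nr2e1 and Hmga2, which says only that these letters are not in the window. Of marked genes with a motif there, 10.5% were bound genes, and read against this share the 0 of 4 is not a result about the 9. Conversely, 82.5% of the 629 bound genes had the motif. Of the bound genes, 60.7% had 2 motifs or more and 61.8% the extended consensus, and of the 13725 marked genes that were not bound, 9.52% and 11.2%. Of the 9 genes, Sox9 alone had 2 motifs in the window.

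Annotated starts shifted some boxes. The RefSeq start of Emx1 is at +493, and no motif lay in the window around it, whereas Pax6 has RefSeq starts at −4, which keeps the CCAAT, at −54, and at +13563, with no motif. RefSeq places the Sox2 start at −410 and the Emx2 start at +318 relative to the GENCODE 5′ end. From these starts, an ATTGG lay at −46 of Sox2 and a CCAAT at −21 of Emx2. Both fitted the extended consensus, that of Sox2 read on the opposite strand. The sites are shown with 10 bases to each side because the annotation used decides their distance from the start. The Sox2 box near the GENCODE 5′ end is given first.
Sox2 box at −179, chr3:34650216-34650240, + strand: ttttttcatcCCAATtgcacttcgc
Sox2 box before the RefSeq start, chr3:34649939-34649963, + strand: gcgctcgctgATTGGccgccggaaa
Emx2 box before the RefSeq start, chr19:59458659-59458683, + strand: gtaatagcgaCCAATcatcaagcca
Lhx2 had no motif before its 5′ end and a CCAAT at −175 from a start at +1811, in a window that held the extended consensus. The 5 protein-coding starts of Nr2f1 had none.

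**Figure D3:**
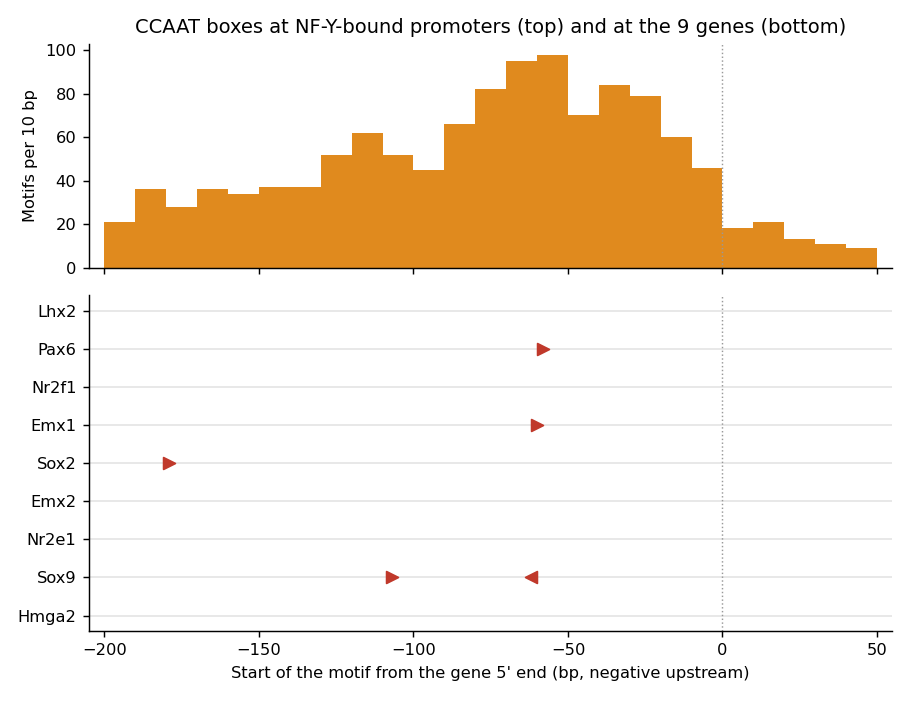
Positions of CCAAT or ATTGG from the gene 5′ end (bp, negative upstream), as motifs per 10 bp at the 629 bound genes (top) and singly at the 9 factors (bottom, right-pointing for CCAAT and left-pointing for ATTGG). Pax6 at −58, Emx1 at −60 and the ATTGG of Sox9 at −62 lie near the median of bound genes at −69, which is also near that of unbound marked genes at −75, and 5 of the 9 genes have no motif in the window.

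Other progenitor factors were compared as a list of 21 genes that included Otx1 and Dmrta2. All 21 were marked, with a median covered length of 4681 bp, and 16 of them exceeded the 95th percentile of marked genes. Among the widest were Nfib with 14508 bp and Otx1 with 8800 bp. In a list of 20 neurogenic and projection neuron factors all were marked, with a median of 3984 bp, and 11 exceeded the 95th percentile. The widest were Pou3f3 with 13316 bp, Bcl11a with 8884 bp and Pou3f2 with 7960 bp. The ranges of the 3 lists overlapped, from 3918 to 13194 bp in the 9, from 1904 to 14508 bp in the other progenitor factors and from 1296 to 13316 bp in the neuronal factors, so genes as broad as the 9 were found in each list. Of 14 factors of other tissues, such as Myod1 of muscle and Gata1 of blood, 5 had a peak, Tfap2c, Spi1, Tbx5, Gata4 and Hnf4a, with a median of 628 bp over these 5. The remaining 9 of the 14, among them Sox10, Cdx2 and Pdx1, had none. The 9 cortical progenitor genes were all marked, as were the 21 other progenitor and 20 neuronal factors.

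**Figure D4:**
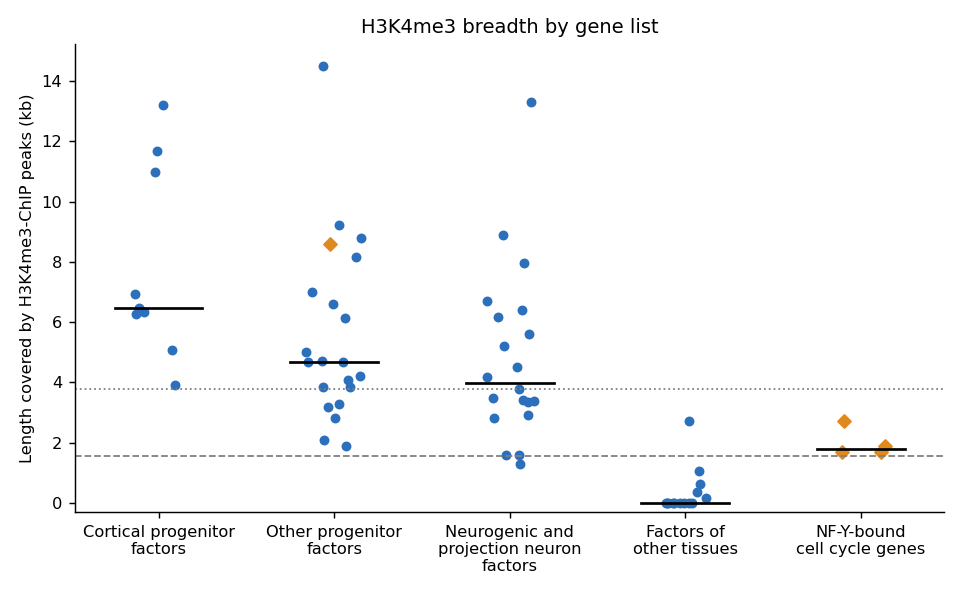
Length covered by H3K4me3-ChIP peaks (kb) for each gene (points, unmarked genes at 0) of the 5 lists, with the list median as a bar, the median of marked genes dashed at 1565 bp and their 95th percentile dotted at 3791 bp. Orange diamonds are genes with an NF-Y-ChIP peak: none of the 9 factors, Dmrta2 among the other progenitor factors and all 4 cell cycle genes.

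An NF-Y-ChIP peak was found at 1 of the 21 other progenitor factors and at 0 of the 20 neuronal factors, which allows up to 15%, against 5.6% of marked genes, so neither count stands apart from the background. The gene with the peak was Dmrta2, a doublesex-related factor of cortical patterning. Its peak (chr4:109977820-109978008) had a 6.48-fold enrichment, near the list median of 6.75, and ranked 394 of 733. Its summit lay at −133 from the 5′ end, and the sequence there is shown with its 3 CCAAT boxes in capitals at −127, −98 and −73. In the same window Pou3f3 also had 3 boxes and Nfia, Hes5, Sox1, Bcl11a, Eomes, Neurod2 and Nhlh1 had 2, all without an NF-Y-ChIP peak.
Dmrta2, chr4:109977913-109978052, + strand: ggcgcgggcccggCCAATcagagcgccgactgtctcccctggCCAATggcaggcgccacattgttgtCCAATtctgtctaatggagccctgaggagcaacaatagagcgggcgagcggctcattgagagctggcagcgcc
The cell cycle genes Mki67, Ube2c, Aspm and Wdr62 were named by the study from these libraries, so their NF-Y-ChIP peaks, at all 4, are a description of that choice. The length covered by H3K4me3-ChIP peaks at these was between 1695 and 2720 bp, below that of each of the 9 progenitor factors.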

How the data were processed

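ChIP-seq libraries of E13.5 mouse cortices were analysed from 2 peak lists, 1 for each antibody. The input had no peak list used here. The authors aligned reads to mm10, which is GRCm38, with Bowtie2 (2.2.8 in the submitters' processing notes) and called peaks with MACS2 (2.1.2). A p-value limit of 0.001 was set in NF-Y-ChIP, and a q-value limit of 0.05 in H3K4me3-ChIP. The study used the input as its negative control, and the account of the MACS2 calling does not say whether it entered there. Fold enrichment, as deposited, is a ratio: MACS2 divides the pileup at a summit by the local background. The deposited −log10 columns are those of the p-value and the q-value. The score in the deposited lists follows the p-value in one list and the q-value in the other, which, with the thresholds, told the antibodies apart. Read counts are not given, so the depth is unknown. Intervals cover counting error over genes only.

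Peaks were assigned with Python 3.11.15 and NumPy 2.4.6 to protein-coding genes of GENCODE M21, from 1 bp of overlap with the gene or the 5 kb upstream. Covered length is the bases under assigned peaks, and the percentile is the share of marked genes with a lower value, ties counted equally to both sides. Motifs were read from GRCm38. RefSeq starts came from a table of promoters that matched 8 of the 9 genes, all but Sox9. Scripts were tested on simulated intervals and sequences. Named genes were the 9, genes annotated at their peaks, genes with an NF-Y-ChIP peak and the 3 widest of each list, of which 1 is not reported here. Other genes of the lists, the paralogues included, were named after their values were seen. The members and all gene lists were chosen with earlier results of these data known. Alternatives were the threshold, the upstream limit, the summit, the gap, the window, the consensus and the start.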

Additional observations from a re-analysis of the deposited data

How the results depend on the processing

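Of 30 alternatives, 22 kept their value within 1.5 times (counts) or within the second to eighth of the 9 genes (medians), and 8 moved. Among the 22 are 4 for the count of 0 NF-Y-ChIP peaks, which say nothing about its stability: q under 0.05, 1 kb upstream and the required summit can only remove peaks, and with 50 kb upstream the nearest peak, at 146 kb, is still outside. Of all protein-coding genes, 3.47% had such a peak with 1 kb and 6.61% with 50 kb upstream. The 41 H3K4me3-ChIP peaks became 10 with peaks above the median fold enrichment of the list only. They became 24 when limited to peaks that touched the 5 kb to each side of the 5′ end. The 28 intragenic peaks became 11 without an annotated start within 1 kb and 2 above the median fold. The 4 genes with a CCAAT box became 7 from 500 bp before to 100 bp after the 5′ end, where 55.7% of marked genes had one, and 2 with the extended consensus. They were 6 over any protein-coding start, against 48.1% of marked genes, and 3 of the 8 genes with RefSeq starts, an alternative chosen after seeing the data that leaves out Sox9, 1 of the 4. The median widest domain of 7135 bp became 5292 bp with no gap joined and 5292 bp above the median fold, where Hmga2 had no peak and 8 of 9 genes remained marked. The median covered length was 5292 bp above the median fold (Hmga2 counted as 0) and 8564 bp with 50 kb upstream, against 1625 and 2336 bp at the genes marked under each setting. Leaving out a replicate was not possible, with 1 library per antibody. No paired analysis was possible because each antibody had 1 library and no test was made. The cause of these moves was not tested beyond what each setting removes. Depth limits the peaks that could be called, and 0 peaks means none passed the threshold of the deposited list.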

Other observations

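The paralogues of the 9 factors differed among themselves in the mark. Nr2f2, also known as COUP-TFII, had 8429 bp covered and a highest enrichment of 51.7-fold, next to 10982 bp and 58.1-fold at Nr2f1. Sox1 had 6608 bp and Sox3 4680 bp, next to 6483 bp at Sox2. Lhx9 had 5507 bp and a highest enrichment of 20.4-fold, next to 13194 bp and 44.3-fold at Lhx2. Sox8 had 2710 bp next to 5066 bp at Sox9, and Hmga1 had 3325 bp and 45.8-fold, next to 3918 bp and 26.2-fold at Hmga2. Pax3 and Pax7, factors of the dorsal neural tube and muscle, had 1193 bp at 6.47-fold and 684 bp at 5.58-fold, next to 11690 bp and 38.3-fold at Pax6. Of the 8 paralogues, 4 exceeded the 95th percentile of marked genes and none had an NF-Y-ChIP peak, which allows a share of up to 37.5%. Sox1 and Sox3 were also in the list of other progenitor factors.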
